A study of Mus musculus with 4 samples.

Results

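The transporters described here are the solute and organic ion carriers of 11 families: the Slc5, Slc6, Slc7, Slc12, Slc13, Slc16, Slc17, Slc22, Slc26 and Slc34 families and the Slco organic anion polypeptides. Members were chosen by gene symbol, with Slc7a11, Slc22a17 and Slc22a18 left out, and each gene was read from the probe set with the highest mean log2 intensity among probe sets annotated to that gene alone. This gave 123 genes of the 18194 measured on the arrays. Slc22 held 19 of them, Slc6 18, Slco 15, Slc7 14, Slc16 13, Slc5 11, Slc26 10, Slc12 8, Slc17 7, Slc13 5 and Slc34 3.

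RNA came from kidneys of chimeric mouse embryos on embryonic day 15.5, which had grown from wildtype blastocysts injected with 3 to 5 embryonic stem cells that carried green fluorescent protein (GFP) and lacked Tfrc, the gene of transferrin receptor 1. Cell sorting parted the host's GFP-negative wildtype cells from the GFP-positive donor cells, and each group was hybridised to 2 Affymetrix whole-genome arrays after amplification of 50 ng of RNA. Each sorted group was a mixture of kidney cell types, and there was no group of donor cells with an intact Tfrc, so loss of Tfrc cannot be told apart from the donor line. The sources used here do not give the embryos' strain, the number of stem cell clones or the number of kidneys pooled per array. The labels call the arrays biological replicates without naming animals, so p-values measure the spread between these arrays. Tfrc itself was not lower on the arrays labelled Tfrc-null (1759 and 2348 in wildtype against 2509 and 3175; difference 0.47 on the log2 scale, limma adjusted p = 0.744; -0.22 with its lowest probe set), so that group is called labelled Tfrc-null throughout. Where the probes lie relative to the deletion was not stated, and an exchange of the group labels, which would turn every direction given here, was not tested.

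The proximal tubule reabsorbs most filtered glucose, phosphate and amino acids by sodium-driven carriers in its brush border, and it secretes drugs, toxins and metabolites by organic anion and cation carriers that take them up from the blood side. The loop of Henle and distal tubule use the cation-chloride cotransporters of the Slc12 family to reabsorb salt. Monocarboxylate carriers of the Slc16 family move lactate and related acids in most cell types. At the stage sampled the kidney is still forming nephrons, and the first proximal tubules have begun to switch on their carriers.

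Most of the transporters were detected in both groups, and none passed the test for a difference between them. Intensities were read against a control level, the highest of 27 bacterial control probe sets on the same array, which was 7.18 and 9.08 in wildtype against 7.40 and 7.77. Of the 123 genes, 84 lay above this level on 4 of 4 arrays, 9 on 3 arrays, 9 on 2 arrays, 6 on 1 array and 15 on 0 arrays. The kidney identity of the cells was checked on proximal tubule markers: 23 of the 26 with values exceeded the control level on 4 of 4 arrays, and the 24 with both arrays of a group above it summed to 4685 and 8424 in wildtype against 6304 and 6266. At a limma adjusted p of 0.05 over all genes, 0 transporters passed, where 0% of all genes did, and 7 (5.69%) had an unadjusted p under 0.05, where 8.02% of all genes did. These 7 were Slc6a17, Slco4c1, Slc16a3, Slc16a5, Slc5a12, Slc12a4 and Slc22a15. With 2 arrays against 2, the smallest two-sided p of an exact permutation test is 0.333.

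Counted without a test, 3 transporters (2.44%) had a mean at least 2-fold lower in the labelled Tfrc-null group and both its arrays below both wildtype arrays, against 1.51% of all genes, and 0 were at least 2-fold higher without overlap, against 1.15%. Differences of any size without overlap were seen for 21 transporters in the higher direction (17.1%; 20.6% of all genes) and 17 in the lower direction (13.8%; 14.3% of all genes), while the groups overlapped for 85. These shares lay close to those of all genes. The median log2 difference, labelled Tfrc-null minus wildtype, was -0.02 over the transporters and 0.04 over all genes. The 3 genes at least 2-fold lower were Slco4c1, Slc6a17 and Slc16a5, and their number was 6 without wildtype replicate 1, 6 without wildtype replicate 2, 7 when replicate 1 of the labelled Tfrc-null group was left out and 2 when its replicate 2 was. The number at least 2-fold higher was 1, 3, 0 and 1 in the same order. As shares of the transporters these were 4.88%, 4.88%, 5.69% and 1.63% lower and 0.813%, 2.44%, 0% and 0.813% higher. Over all genes the shares with each array left out were 1.9%, 2.45%, 1.93% and 1.96% lower and 1.4%, 2.61%, 1.8% and 1.38% higher, each above the share with all arrays.

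**Figure D1:**
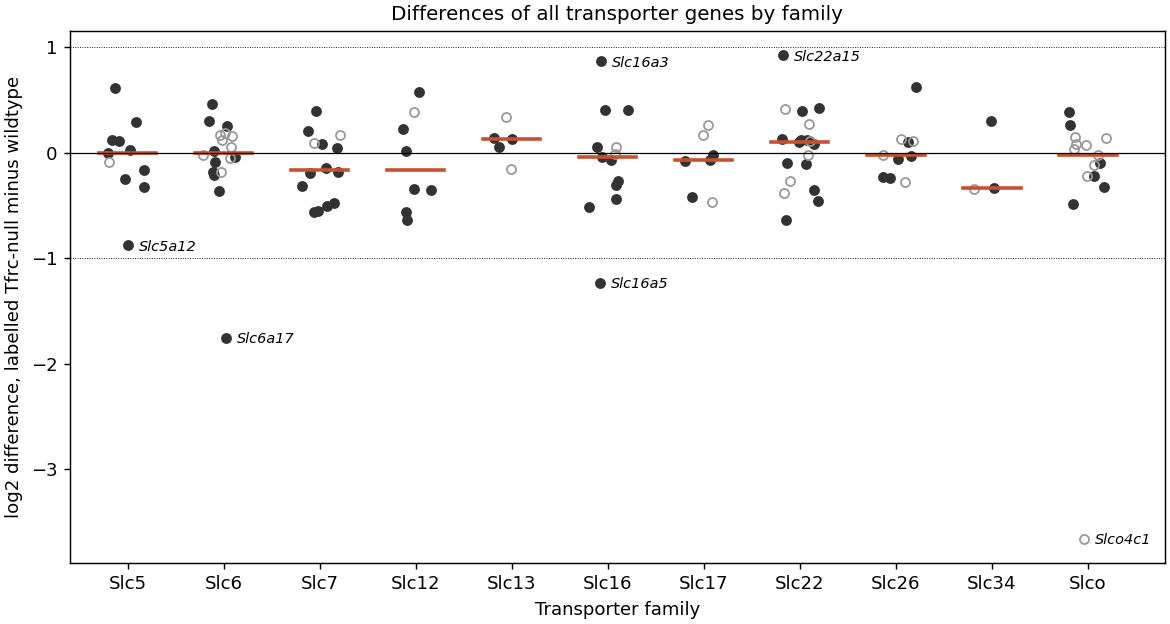
Log2 difference (labelled Tfrc-null minus wildtype, y axis) of each of the 123 transporter genes by family (x axis), 1 point per gene. Filled points are genes above the control level on 4 of 4 arrays, open points are the others, and a line marks each family's median. Most points lie near 0, and Slco4c1 at -3.66 and Slc6a17 at -1.75 lie lowest.

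The transporter that differed most was Slco4c1, a basolateral organic anion polypeptide known for uptake of cardiac glycosides and thyroid hormone in the kidney. It read 169 and 80.4 in wildtype cells, against 13.4 and 6.39 in cells labelled Tfrc-null, that is 124 ± 62.3 in wildtype and 9.88 ± 4.93 in the other group (SD, n = 2 each). Both wildtype arrays lay far above both others, and labelled Tfrc-null replicate 2 lay below its array's control level. Its log2 difference came to -3.66 (SE 0.50; limma adjusted p = 0.15), and it lay between -4.19 and -3.12 when any array was left out. With labelled Tfrc-null replicate 2 set at its control level, Slco4c1 was 11.4-fold lower on this probe set, and a pseudocount of 16 gave a log2 difference of -2.38, 5.20-fold. The other Slco4c1 probe set read 62.1 and 27.5 in wildtype against 9.36 and 5.17, a log2 difference of -2.57 (5.95-fold), lower without overlap as well. In bulk samples such as these, fewer cells that express a gene and less RNA per cell cannot be told apart, here and for each gene that follows.

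Markers of the ureteric bud, the branching epithelium that forms the collecting ducts, were lower on the same arrays. Of the 22, 22 had a lower mean in the labelled Tfrc-null group, 15 of them without overlap (68.2%, against 14.3% of all genes). Their median log2 difference was -0.74. Their summed intensity was 9425 and 9809 in wildtype against 4113 and 4735, and 0 of the 22 had no array above the control level. Ret, the receptor of the bud tip, read 1057 and 789.6 in wildtype against 104 and 65.1. The part of these cells in the Slco4c1 difference was not tested. Endothelial markers were also lower in 16 of 16 means, with summed intensities of 7189.9 and 6356 against 4424 and 3711. Red cell markers were lower in 12 of 12 means and in 9 without overlap (14.3% of all genes). Their sums were 1641 and 4516 against 251 and 294, and 2 of the 14 with values had no array above the control level.

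The promoter of Slco4c1 is shown because this gene carries the largest difference among the transporters. The sequences printed here are RefSeq sequences of GRCm38.p6, 5′ to 3′, and each is the 250 bases before a transcript start. The Slco4c1 window lies at chr1:96872172-96872421 on the minus strand, and the annotated span of the gene begins inside it. Capitals mark GGGCGG, the GC box, searched on both strands.
Slco4c1: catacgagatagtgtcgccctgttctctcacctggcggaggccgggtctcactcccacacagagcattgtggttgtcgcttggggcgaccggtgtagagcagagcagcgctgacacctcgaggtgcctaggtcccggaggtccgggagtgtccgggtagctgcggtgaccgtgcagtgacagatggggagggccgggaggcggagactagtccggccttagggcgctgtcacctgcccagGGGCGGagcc
The window holds 1 GC box and 19 CG dinucleotides. GC boxes occurred in such windows of 35.4% of 27025 genes and of 41 of the 94 transporters with a promoter entry. The gene next to Slco4c1 on chromosome 1 is Slco6c1, another member, which read 7.49 and 7.68 in wildtype against 7.57 and 7.38, with the groups overlapping.

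Slc6a17, a carrier of neutral amino acids known from synaptic vesicles, read 41.7 and 33.4 in wildtype cells, against 10.3 and 12 in cells labelled Tfrc-null. Its means were 37.6 ± 5.89 in wildtype and 11.1 ± 1.22 in the other group (SD, n = 2 each). The groups were well separated, with a log2 difference of -1.75 (SE 0.21; limma adjusted p = 0.124), 3.37-fold, which was the smallest adjusted p among the transporters. The other 2 probe sets of Slc6a17 did not follow: their log2 differences were -0.16 and -0.41, with the groups overlapping. Neural crest and neuronal markers had no common direction. Of the 12 measured, 4 were higher (20.6% of all genes) and 3 lower (14.3% of all genes) without overlap. Their summed intensities were 404 and 565 in wildtype against 438 and 608. Slc12a5, the neuronal potassium-chloride cotransporter, read 36.1 and 27.1 in wildtype against 19.6 and 22.9, a log2 difference of -0.56 (SE 0.23; limma adjusted p = 0.637).

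**Figure D2:**
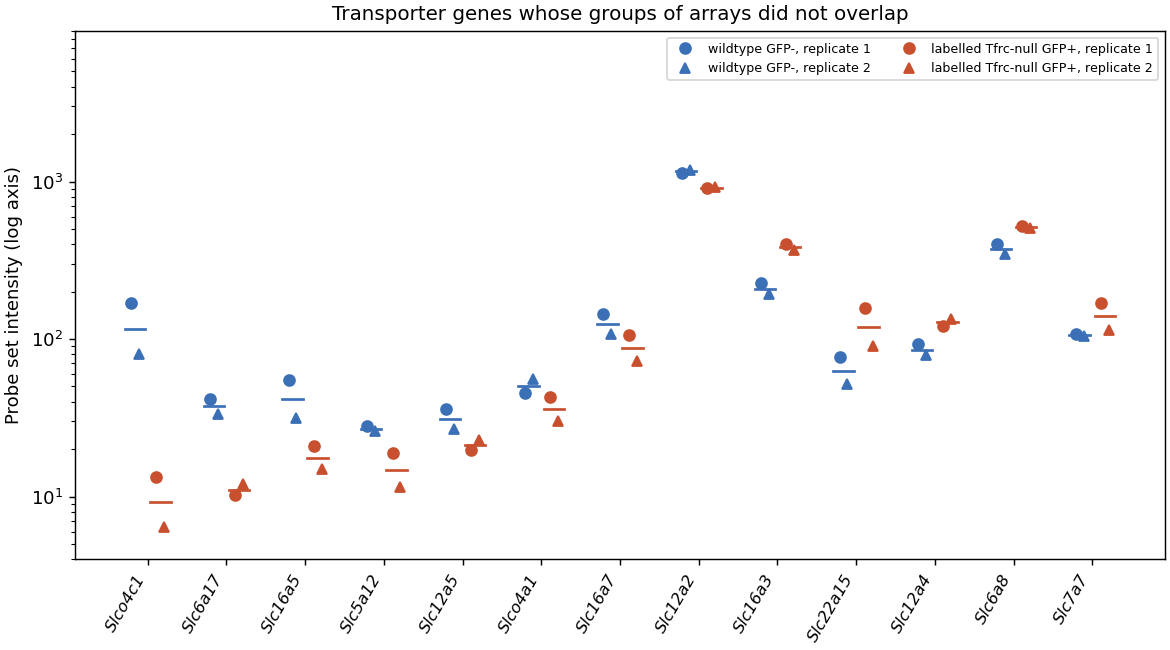
Intensity (y axis, log scale) of 13 transporter genes whose groups did not overlap (x axis), 1 point per array, wildtype in blue and labelled Tfrc-null in red, with a line at each group's mean of log2 intensity. The largest gap is that of Slco4c1, at 169 and 80.4 in wildtype against 13.4 and 6.39.

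Among the monocarboxylate carriers of the Slc16 family, 0 of 13 genes passed the test, and the lactate carriers MCT1 and MCT4 had differences of opposite sign. Slc16a3 (MCT4), which exports lactate from glycolytic cells, read 227 and 192 in wildtype cells, against 399 and 365 in cells labelled Tfrc-null. Both labelled Tfrc-null arrays were higher, with a log2 difference of 0.87 (SE 0.20; limma adjusted p = 0.312), 1.82-fold. Slc16a1 (MCT1), which moves lactate and pyruvate in either direction, read 1787 and 2264 in wildtype against 1690.5 and 1312, lower without overlap, a log2 difference of -0.43 (SE 0.23; limma adjusted p = 0.762). Its other probe set, at 27.4 and 28.8 in wildtype against 23.8 and 29.8, gave -0.08 with overlap. Slc16a7 (MCT2), a carrier of high affinity, read 143 and 108 in wildtype against 106 and 72.5, lower without overlap, a log2 difference of -0.51. Bsg (basigin), the glycoprotein that brings MCT1 and MCT4 to the cell surface, read 521 and 579.9 in wildtype against 777 and 612, higher without overlap by 0.33. Emb (embigin), the partner of MCT2, read 244 and 191 in wildtype against 141 and 121, a log2 difference of -0.73 (SE 0.22; limma adjusted p = 0.477). The sign for Emb was lost with its lowest probe set, which gave 0.04.

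Most stromal markers had higher means in the group where Slc16a3 was higher, and leukocyte markers were mixed. Of 17 stroma markers, 16 had higher means on the arrays labelled Tfrc-null and 12 were higher without overlap (20.6% of all genes). Their summed intensities were 21079 and 16351 in wildtype against 27769 and 24817, and 0 had no array above the control level. Of 15 measured leukocyte markers, 12 had higher means. Without overlap, 5 were higher (20.6% of all genes) and 3 (Ptprc, Lyz2 and Ctss) lower (14.3% of all genes). The leukocyte sums were 7889 and 9549.5 against 9541 and 9832, and 1 of the 16 on the array lay at or below the control level throughout. The part of stromal cells and leukocytes in the Slc16a3 difference was not tested.

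The promoter of Slc16a3 is shown because it is the higher transporter with the smallest p. The window lies at chr11:120948817-120949066 on the plus strand, inside the span annotated for the gene, which has a transcript that starts farther upstream. Capitals mark ACGTG, the core of hypoxia response elements, searched on both strands.
Slc16a3: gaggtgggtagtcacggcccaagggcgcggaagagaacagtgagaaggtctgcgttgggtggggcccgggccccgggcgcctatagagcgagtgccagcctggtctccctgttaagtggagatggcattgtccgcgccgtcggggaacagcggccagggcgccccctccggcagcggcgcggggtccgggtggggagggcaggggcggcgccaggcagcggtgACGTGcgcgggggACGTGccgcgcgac
The window holds 2 such cores, 27 and 14 bases before the start, and a GC box 48 bases before it that does not overlap them. ACGTG occurred in the windows of 18.5% of genes and of 20 of the 94 transporters, and a match is a stretch of letters, not a site shown to be bound.

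Slc16a5 (MCT6), a carrier of drugs such as diuretics, read 54.8 and 31.5 in wildtype cells, against 20.9 and 15 in cells labelled Tfrc-null. It was lower without overlap, with a log2 difference of -1.23 (SE 0.34; limma adjusted p = 0.418), 2.35-fold. Its other probe set, which lay above the control level on 2 arrays, gave 0.28, so the direction rests on the brighter probe set. Slc16a6 read 28.4 and 39.5 in wildtype against 42.2 and 46.6, higher without overlap by 0.40. Slc16a9, a carnitine and urate-associated carrier of the proximal tubule, read 154 and 227 in wildtype against 205 and 298, with the groups overlapping, while its other probe set was higher without overlap by 0.67. Of the 7 other Slc16 genes, 5 lay above the control level on 4 of 4 arrays, and their differences ran from -0.31 (Slc16a12) to 0.06 (Slc16a8).

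Of 42 carriers listed for the proximal tubule, 31 lay above the control level on 4 of 4 arrays at this stage, and 0 passed limma's adjusted p of 0.05, with 2 (4.76%), Slco4c1 and Slc5a12, at an unadjusted p under 0.05, below the 8.02% of all genes. Over all 42, the median log2 difference was -0.00094, beside 0.04 over all genes. Slc34a1, the sodium-phosphate cotransporter of the brush border, read 141 and 282 in wildtype cells, against 172 and 147 in cells labelled Tfrc-null. The groups overlapped, and the fitted log2 difference came to -0.33 (SE 0.36; limma adjusted p = 0.942). Slc34a2 and Slc34a3, its relatives, were dim: Slc34a2 read 9.61 and 10.8 in wildtype against 9.10 and 7.16, and Slc34a3 read 8.79 and 11.1 in wildtype against 12.7 and 11.7, with log2 differences of -0.34 and 0.30 and no overlap of the groups.

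Organic anion uptake from the blood runs through Slc22a6 (OAT1) and Slc22a8 (OAT3), which exchange drugs and metabolites for dicarboxylates. Slc22a6 read 61.1 and 127 in wildtype cells, against 118 and 73.7 in cells labelled Tfrc-null, a log2 difference of 0.08 (SE 0.43; limma adjusted p = 1). Its other probe set read 39.1 and 88.0 in wildtype against 58.0 and 47.9, with the same order of the arrays within each group. Slc22a8 read 42.9 and 29.4 in wildtype against 39.4 and 27.6, a log2 difference of -0.11 (SE 0.29; limma adjusted p = 0.995). In both genes the groups overlapped, though the other Slc22a8 probe set, at 21.0 and 20.5 against 13.9 and 18.5, was lower without overlap by a log2 difference of -0.37. Slc22a12 (URAT1), the apical urate exchanger, read 11.9 and 16.7 in wildtype against 15.8 and 15.1, and Slc22a2 (OCT2), the basolateral carrier of organic cations, read 31.2 and 55.6 in wildtype against 45.6 and 15.7, again with overlap. Slc22a19, an organic anion carrier, read 46.4 and 176 in wildtype against 161 and 88, and Slc22a22, a prostaglandin carrier, read 64 and 136 in wildtype against 119.8 and 85.8.

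The promoters of Slc34a1, Slc22a6 and Slc22a8 are shown because these carriers mark the proximal tubule. Their windows lie at chr13:55399398-55399647, chr19:8617746-8617995 and chr19:8592932-8593181, each on the plus strand. The Slc22a6 window ends where the gene begins, the annotated span of Slc34a1 begins inside its window, and the Slc22a8 window lies inside the span annotated for that gene. Capitals mark GTTAAT or its reverse complement ATTAAC, part of a palindromic site known from promoters of liver and proximal tubule genes.
Slc34a1: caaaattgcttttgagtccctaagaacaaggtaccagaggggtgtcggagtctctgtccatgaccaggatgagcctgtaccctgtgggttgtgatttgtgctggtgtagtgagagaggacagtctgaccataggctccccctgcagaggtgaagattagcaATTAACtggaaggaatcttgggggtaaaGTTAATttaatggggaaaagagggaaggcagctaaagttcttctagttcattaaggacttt
Slc22a6: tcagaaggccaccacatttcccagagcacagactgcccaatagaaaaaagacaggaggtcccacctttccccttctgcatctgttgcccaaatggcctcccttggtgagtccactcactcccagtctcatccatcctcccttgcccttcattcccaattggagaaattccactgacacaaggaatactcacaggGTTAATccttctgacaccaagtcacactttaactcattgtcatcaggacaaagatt
Slc22a8: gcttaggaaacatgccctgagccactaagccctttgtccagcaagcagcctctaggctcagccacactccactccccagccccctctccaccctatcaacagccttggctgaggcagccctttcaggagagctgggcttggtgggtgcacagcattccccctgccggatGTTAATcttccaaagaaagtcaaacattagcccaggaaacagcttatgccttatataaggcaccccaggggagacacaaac
The matches begin 89 and 61 bases before the start in Slc34a1, 56 bases before it in Slc22a6 and 81 bases before it in Slc22a8. On both strands, GTTAAT occurred in the windows of 7.49% of 27025 genes and of 13 of the 94 transporters with an entry (13.8%). It occurred in 7 of 34 transporters listed as proximal tubule carriers (20.6%) and in 6 of 60 others (10%), a description with no test. The 4 genes Slc22a29, Slc22a30, Slc22a8 and Slc22a6 are neighbours on chromosome 19, as are Slc22a19, Slc22a26 and Slc22a27. In all, 32 transporters lay in 13 such runs of neighbouring members.

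Most of the proximal tubule carriers differed more between arrays of one group than between the groups. Of the 31 above the control level on 4 of 4 arrays, 21 were higher on wildtype replicate 2 than on wildtype replicate 1 (67.7%), 25 were higher on labelled Tfrc-null replicate 1 than on replicate 2 (80.6%), and 16 were both (51.6%). Over the 13572 genes above the control level on 4 of 4 arrays, the shares were 50.5%, 50.0% and 15.4%, and 12 of the 53 other transporters were both (22.6%). Without regard to sign, the median log2 gap within the 31 was 0.55 in wildtype and 0.51 in the other group, and the median difference between the groups was 0.19. Over the 13572 genes these were 0.32, 0.24 and 0.20. Deviations of same-numbered arrays had a correlation across genes of -0.07 over the 31 and 0.55 over the 13572, given as a description, since genes of one array share its library. The larger of the within-group gaps exceeded the group difference in 27 of the 31 (87.1%), against 74.0% of the 13572. Both gaps exceeded it in 18 of the 31 (58.1%), against 43.9%. A gap between single arrays varies more than a difference between means of 2 arrays, so these counts are read only beside those of all genes.

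Slc7a12, an amino acid carrier of the kidney, showed this order plainly, at 52.8 and 132 in wildtype against 102 and 34.2. Slc17a1 (NPT1), an apical urate and phosphate carrier, read 114 and 221 in wildtype against 148 and 96, and its neighbour on chromosome 13, Slc17a3 (NPT4), read 45.4 and 64.1 in wildtype against 77.5 and 34.2. In each of the 3 genes wildtype replicate 2 and labelled Tfrc-null replicate 1 were the high arrays. Proximal tubule markers outside these families shared the first part of the order: 20 of 23 were higher on wildtype replicate 2, and 13 of 23 on labelled Tfrc-null replicate 1. That first part was not particular to proximal tubule genes. Wildtype replicate 2 was also higher for 12 of 12 measured red cell markers. The 22 listed proteins that assist the carriers, of which 19 were higher on it, are not a set apart from the proximal tubule. Hnf4a, for one, is on that list and among the proximal tubule markers. Wildtype replicate 2 was higher for only 4 of 17 stroma markers and 4 of 16 endothelial markers. The share of proximal tubule cells in each array was not measured, and its part in these gaps was not tested.

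**Figure D3:**
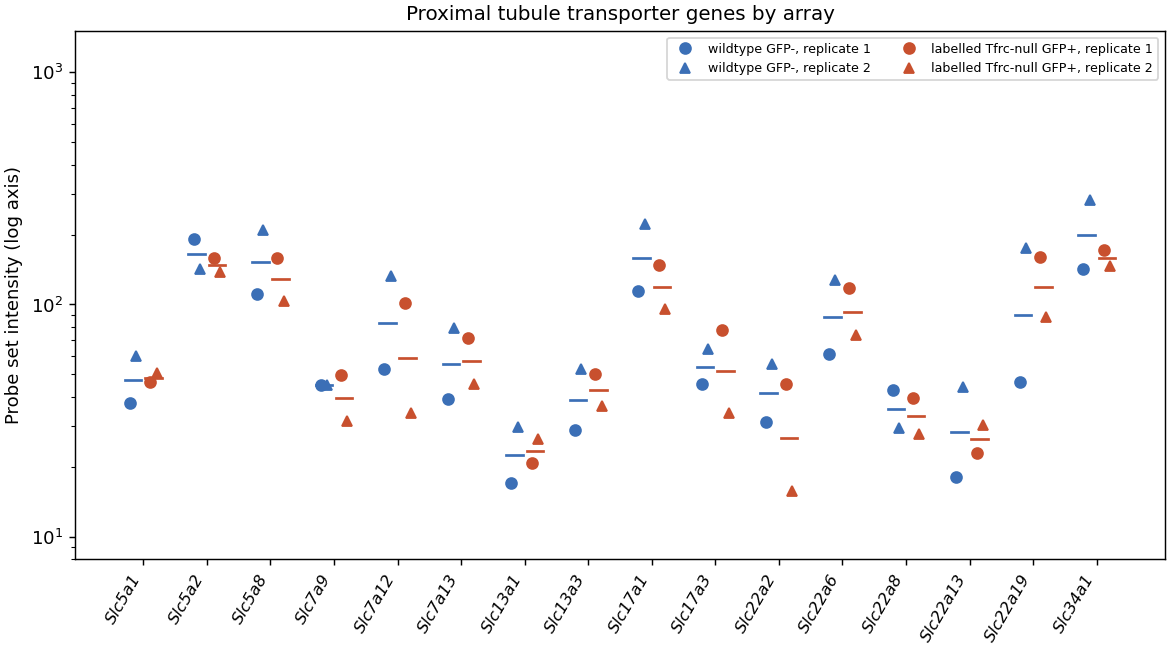
Intensity (y axis, log scale) of 16 proximal tubule transporter genes (x axis), 1 point per array, wildtype in blue and labelled Tfrc-null in red, with a line at each group's mean of log2 intensity. For Slc22a6, Slc17a1, Slc7a12 and Slc22a19 the high points are wildtype replicate 2 and labelled Tfrc-null replicate 1, and the groups overlap.

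**Figure D4:**
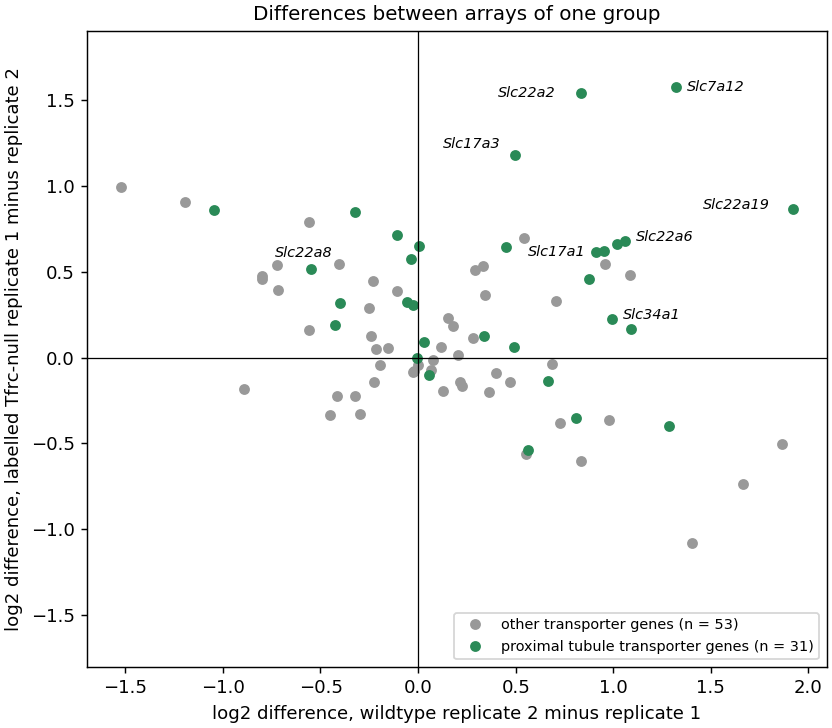
Log2 difference of wildtype replicate 2 minus replicate 1 (x axis) against labelled Tfrc-null replicate 1 minus replicate 2 (y axis) for transporters above the control level on 4 of 4 arrays, 31 proximal tubule carriers and 53 others. Of the proximal carriers, 16 lie in the upper right quadrant, where both differences are above 0, and 12 of the others do.

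In the Slc5 family of sodium-glucose and related carriers, 10 of 11 genes had groups that overlapped. Over all genes, 20.6% were higher and 14.3% lower without overlap. Slc5a2 (SGLT2), the main glucose carrier of the early proximal tubule, read 191 and 142 in wildtype against 158 and 138, and Slc5a1 (SGLT1), the carrier of its later part, read 37.7 and 59.8 in wildtype against 46.2 and 50.9, both with overlap and with log2 differences of -0.16 and 0.03. The other Slc5a2 probe set, at 114 and 93.9 against 85.2 and 72.5, was lower without overlap, a log2 difference of -0.40. Slc5a12, a sodium-lactate cotransporter of the proximal tubule, was the only Slc5 gene whose groups did not overlap. It read 28 and 25.9 in wildtype cells, against 18.8 and 11.5 in cells labelled Tfrc-null, a log2 difference of -0.88 (SE 0.28; limma adjusted p = 0.512), and -0.32 with its other probe set, where the groups overlapped. Slc5a8, its relative of higher affinity for lactate, read 111 and 209 in wildtype against 159 and 104, with overlap. Slc5a3, which takes up myo-inositol as an osmolyte, read 435 and 721 in wildtype against 392 and 511. Among the 6 other Slc5 genes, 5 lay above the control level on 4 of 4 arrays, with differences from 0.00 (Slc5a9) to 0.62 (Slc5a6, a vitamin carrier).

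Of the 18 genes of the Slc6 family, 10 lay above the control level on 4 of 4 arrays and 4 on 0 arrays. Slc6a8, the creatine transporter, read 402 and 347 in wildtype cells, against 524 and 506 in cells labelled Tfrc-null. Both labelled Tfrc-null arrays were higher, by 0.46 (SE 0.19; limma adjusted p = 0.637). Slc6a9 (GLYT1), a glycine carrier, read 1175 and 715 in wildtype against 815 and 621, and Slc6a6, the taurine transporter, read 334 and 202 in wildtype against 305 and 209.8, with overlap in both. Slc6a4, the serotonin transporter, was dim at 8.75 and 9.73 in wildtype against 12.3 and 10.5, higher without overlap by 0.30. Slc6a19 (B0AT1), the main neutral amino acid carrier of the brush border, read 6.60 and 7.26 in wildtype against 8.06 and 7.52 and exceeded the control level on 1 array. The 12 other Slc6 genes included 5 above the control level on 4 of 4 arrays, with differences from -0.21 (Slc6a2) to 0.26 (Slc6a15).

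The Slc7 family holds the amino acid exchangers and the cationic amino acid carriers. Slc7a7 (y+LAT1), the basolateral exporter of cationic amino acids, read 107 and 105 in wildtype cells, against 169.9 and 114 in cells labelled Tfrc-null, higher without overlap by 0.39 (SE 0.25; limma adjusted p = 0.821). Slc7a9 (b0,+AT), the apical cystine carrier, read 44.9 and 45.2 in wildtype against 49.5 and 31.5, with overlap. Slc7a1 (CAT1), a cationic amino acid carrier of most cells, read 3767 and 3497 in wildtype against 3662 and 2797, and Slc7a6, a relative of Slc7a7, read 245 and 323 in wildtype against 314 and 334. Slc7a5 (LAT1), a leucine exchanger of growing cells, read 385 and 168 in wildtype against 236 and 126, and its arrays within a group differed more than the groups did. Slc7a14 was lower without overlap at 14.4 and 10.5 in wildtype against 7.90 and 9.95, a log2 difference of -0.47. The difference turned to 0.13 with its lowest probe set, which had no array above the control level. The 8 other Slc7 genes, Slc7a12 among them, included 6 above the control level on 4 of 4 arrays, with differences from -0.56 (Slc7a8) to 0.08 (Slc7a4).

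In the Slc12 family, 3 of 8 genes were higher (37.5%; 20.6% of all genes) and 2 lower (25%; 14.3% of all genes) without overlap, none past the test. Slc12a1 (NKCC2), the furosemide-sensitive carrier of the thick ascending limb, read 142 and 276 in wildtype cells, against 154 and 105 in cells labelled Tfrc-null. The groups overlapped, and the fitted log2 difference came to -0.64 (SE 0.38; limma adjusted p = 0.801). Slc12a3 (NCC), the thiazide-sensitive carrier of the distal tubule, was dim at 13.8 and 9.37 in wildtype against 9.42 and 8.43. Slc12a2 (NKCC1), the widely expressed relative of NKCC2, read 1130.0 and 1191 in wildtype cells, against 908 and 917 in cells labelled Tfrc-null, lower without overlap, a log2 difference of -0.35 (SE 0.18; limma adjusted p = 0.747), and its further 2 probe sets gave -0.70 and -0.29. Slc12a4 (KCC1), a potassium-chloride carrier of cell volume control, was higher without overlap at 92.7 and 79.3 in wildtype against 121 and 134, a log2 difference of 0.57 (SE 0.20; limma adjusted p = 0.535). Slc12a7 (KCC4) read 192 and 173 in wildtype against 189 and 181, with overlap.

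Slc12a9 was higher without overlap at 57.6 and 70.1 in wildtype against 77.3 and 71.4, a difference of 0.23, and Slc12a8, above the control level on 2 arrays, at 6.78 and 6.09 in wildtype against 8.46 and 8.31, a difference of 0.38. With the lowest probe set these became -0.02 and -0.09, and the lowest probe set of Slc12a8 had no array above the control level. Loop and distal markers were lower in 15 of 18 means and in 7 without overlap (14.3% of all genes). Their sums were 5100.1 and 5165 in wildtype against 3426 and 3078, with 0 at or below the control level throughout. Their part in the Slc12a1 values was not tested. The kinase Stk39 (SPAK), which phosphorylates NKCC and NCC carriers, read 349.6 and 354 in wildtype cells, against 488 and 498 in cells labelled Tfrc-null, a log2 difference of 0.49 (SE 0.18; limma adjusted p = 0.572). Wnk3, a kinase that acts upstream of Stk39, read 53 and 67.3 in wildtype against 79.1 and 77.4, higher by 0.39.

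In the Slc26 family of anion exchangers, the groups overlapped for 7 of 10 genes. Without overlap, 1 was higher (20.6% of all genes) and 2 were lower (14.3% of all genes). Slc26a7, a chloride and bicarbonate exchanger, read 103 and 184 in wildtype against 173 and 262, with overlap and a log2 difference of 0.63 (SE 0.36; limma adjusted p = 0.79). Slc26a4 (pendrin), the apical exchanger of intercalated cells, read 21.5 and 18.8 in wildtype against 16.8 and 17.4, lower without overlap, a log2 difference of -0.23. Slc26a2, a sulphate carrier needed for cartilage, read 205 and 202 in wildtype against 190.3 and 201, and Slc26a6, an oxalate exchanger of the brush border, read 33.2 and 33.9 in wildtype against 37.3 and 35. The 6 other Slc26 genes included 2 above the control level on 4 of 4 arrays, with differences of -0.24 (Slc26a11) and -0.03 (Slc26a8).

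Of the Slc13 carriers of sulphate and dicarboxylates, Slc13a1 (NaS1), which reabsorbs sulphate, read 17 and 29.8 in wildtype against 20.7 and 26.4. Slc13a3 (NaDC3), which loads the cell with the dicarboxylates that OAT1 and OAT3 exchange, read 28.8 and 52.8 in wildtype against 50.2 and 36.6, and Slc13a2 (NaDC1), the apical citrate carrier, read 11.2 and 10.8 in wildtype against 13.5 and 10.8. The groups overlapped in all 3 of these. Slc13a5, a citrate carrier, was dim at 9.34 and 8.65 in wildtype against 10.7 and 12.1, higher without overlap by 0.34, and Slc13a4 had no array above the control level. In the Slc17 family 0 of 7 genes had groups that did not overlap, where 20.6% of all genes were higher and 14.3% lower without overlap. Slc17a5 (sialin), the lysosomal sialic acid carrier, read 90.2 and 51.8 in wildtype against 78.9 and 57.4. Of the 4 other Slc17 genes, 1 (Slc17a9) lay above the control level on 4 of 4 arrays, with a difference of -0.07.

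Slc22a15, a carrier of zwitterions, gave the largest higher difference of all the transporters. It read 76.5 and 52 in wildtype cells, against 157 and 91 in cells labelled Tfrc-null, a log2 difference of 0.92 (SE 0.35; limma adjusted p = 0.591), 1.9-fold, though labelled Tfrc-null replicate 2 lay closer to wildtype replicate 1 than to its own group's replicate 1. Its other probe set, with no array above the control level, gave -0.07. Slc22a30 was lower without overlap at 12 and 12.5 in wildtype against 9.25 and 9.93, a difference of -0.35. The 12 other Slc22 genes, Slc22a2 among them, included 6 above the control level on 4 of 4 arrays, with differences from -0.64 (Slc22a2) to 0.43 (Slc22a21).

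Among the organic anion polypeptides other than Slco4c1 no gene had an unadjusted p under 0.05. Slco4a1, a thyroid hormone carrier, read 45.6 and 55.8 in wildtype against 43 and 30.2, lower without overlap, a log2 difference of -0.48 (SE 0.25; limma adjusted p = 0.75). Its other probe set, at 20.3 and 19.0 in wildtype against 16.1 and 21.4, gave -0.08 with overlap. Slco2a1, the prostaglandin transporter, read 42 and 133 in wildtype against 69.4 and 115, and Slco2b1 read 106 and 37 in wildtype against 70.8 and 35.5, and in both genes the wildtype arrays lay farther apart than the group means. Slco3a1 read 437 and 330.4 in wildtype against 365 and 293, with overlap, and Slco5a1 was higher without overlap at 10.3 and 10.8 in wildtype against 13.5 and 14.1, by 0.38. Of the 9 other Slco genes, Slco6c1 included, 1 (Slco1a4) lay above the control level on 4 of 4 arrays, with a difference of -0.09, and 4 of the family's 15 genes had no array above it.

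Proteins that assist these carriers were read from a list of scaffold proteins, carrier subunits, kinases and transcription factors. Of the 22 with values, 0 passed limma's adjusted p of 0.05 and 2, Emb and Stk39, had an unadjusted p under 0.05 (9.09%; 8.02% of all genes). Their means were higher in 7 and lower in 15, with 3 higher (13.6%; 20.6% of all genes) and 9 lower (40.9%; 14.3% of all genes) without overlap, and the median log2 difference was -0.11. Pdzk1ip1 (MAP17), a membrane protein that activates SGLT2, read 269 and 502 in wildtype cells, against 228 and 212 in cells labelled Tfrc-null, a log2 difference of -0.74 (SE 0.33; limma adjusted p = 0.684). Wildtype replicate 2 was the high array here, as it was for Slc34a1, Slc17a1 and Slc22a6.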

How the data were processed

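Cells sorted from chimeric kidneys were profiled on 4 arrays, 2 per group. The authors deposited linear intensities per probe set, made with RMA per the submitters' processing notes; the sources used here do not give its version. RMA equalises the arrays' distributions, so a shift shared by most genes would not show. Of 45101 probe sets, 34958 had 1 gene symbol in the platform annotation, 932 several and 9211 none. The deposited intensities were log2-transformed and not normalized again. A model with group as its sole term was fitted to all 18194 genes (R 4.3.3, limma 3.58.1, default eBayes), and p-values were adjusted by Benjamini-Hochberg across the whole table at a threshold of 0.05. Scripts were tested on simulated data.

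The named genes were up to 12 transporters per direction with the largest moderated t among those whose groups did not overlap and whose higher group lay above the control level, the 3 brightest of each family, the carriers that define a nephron segment, and 4 partners with the smallest p. Slc7a12, Slc22a2, Slco6c1, Bsg, Ptprc, Lyz2, Ctss and Ret were named after their values were seen, as were genes given as the end of a range. The members and the gene lists were chosen with earlier results of these data known. All 123 members were matched to RefSeq by Entrez identifier, and 94 had a promoter entry. Alternatives changed the block, the scaling, a pseudocount of 16, the filter, the probe set, limma's prior and the arrays included.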

Additional observations from a re-analysis of the deposited data

How the results depend on the processing

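With 2 arrays per group, the number of arrays limits every value. Under each of the 12 alternatives 0 transporters passed the adjusted threshold of 0.05, with the smallest adjusted p among them between 0.064 and 0.922. Without a test, the number at least 2-fold lower was 3, and it became 1 with a pseudocount of 16, 1 with the mean of all probe sets and 1 with the lowest probe set. It was 0 with only genes above the median level, a filter that kept 37 transporters. All 3 genes fell below that level and were dropped, and the differences of the kept genes stayed as they were. Leaving out 1 array gave 2 to 7 lower (1.63% to 5.69%) and 0 to 3 higher (0% to 2.44%). The all-gene shares were 1.9% to 2.45% lower and 1.38% to 2.61% higher. Slco4c1 and Slc6a17 were at least 2-fold lower without overlap in all 4 of these settings. Over all genes, the number past the threshold was 0, and it became 2 with median centring, 1 with genes above the median level, 1 with the mean of all probe sets and 2 with limma's trended robust prior. With the lowest probe set the difference reversed for Slc12a8 (-0.0947), Slc12a9 (-0.0184), Slc16a5 (0.28), Slc22a15 (-0.0691), Slc7a14 (0.13) and Emb (0.0424). The lowest probe sets of Slc12a8, Slc22a15 and Slc7a14 had no array above the control level, and that of Slc16a5 had 2. The cause of the reversals was not tested. Among the other transporters named by the stated rules, the sign also differed for 7 with a smaller difference, overlapping groups or few arrays above the control level: Slc12a3 (0.07), Slc13a1 (-0.35), Slc22a6 (-0.15), Slc26a2 (0.07), Slc6a19 (-0.09), Slc6a6 (0.02) and Slc7a1 (0.30). Transporters outside those rules changed sign as well, among them Slc22a5 (-0.08, against 0.10 with the probe set used) and Slc26a1 (-0.21, against 0.11). The medians over the transporters, -0.05 to 0.05, moved by less than the spread between arrays.

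The groups share replicate numbers, and the labels do not say that a number marks a shared litter or day. Same-numbered arrays deviated together (r = 0.51 across 18194 genes, which are not independent), from 2 pairs only. With the replicate block, 2 genes and 0 transporters passed, and 15 transporters (12.2%) in place of 7 had an unadjusted p under 0.05, against 14.8% of all genes.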

Other observations

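Of the 91 probe sets of transporter genes that were not used, 34 lay above the control level on 4 of 4 arrays, in 29 genes, and 25 of the 34 had the sign of the probe set used. A probe set of Slc7a2, a cationic amino acid carrier, read 29.2 and 23.2 in wildtype against 11.3 and 11.2 on the arrays labelled Tfrc-null, a log2 difference of -1.21, while the probe set used gave -0.32. A probe set of Slc7a4 read 27.3 and 20.4 against 9.80 and 13.5, a log2 difference of -1.04, while the probe set used gave 0.08. Both genes were singled out after their values were seen.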
